A study of Mus musculus with 55 samples.

Results

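The proteasome subunit genes of the mouse were followed through dorsal hippocampal RNA of WT and Cnih3 KO mice. Members were the protein-coding genes whose symbol begins with Psma, Psmb, Psmc, Psmd, Psme, Psmf or Psmg and a digit, without the interferon-inducible Psmb8, Psmb9 and Psmb10, and with over 1 CPM (reads scaled to a common library size) in at least 10 of 55 libraries. Of 47 genes that met the naming rule, 45 passed this filter, among 16168 genes tested in all. Psma8 and Psmb11, known for their use in testis and thymus, did not pass. The 45 members fall into the 20S core particle (7 alpha and 7 beta ring genes), the 19S regulatory particle (6 ATPases and 11 other subunits), 7 assembly chaperones, and 5 activators and inhibitors. The other 2 are Psmc3ip, a recombination factor that is no proteasome subunit and entered by its symbol, and Psme2b, a close copy of Psme2 whose reads may be shared with it.

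The proteasome is the main protease of the cytosol and nucleus for proteins tagged with ubiquitin. Its core is a barrel of stacked rings in which the beta subunits Psmb5, Psmb6 and Psmb7 cut peptide bonds, and its cap, the regulatory particle, binds ubiquitin chains, removes them and unfolds the substrate with a ring of ATPases. In neurons proteasomes act in the cell body and at synapses, where protein turnover contributes to synaptic plasticity. Transcripts of the subunits are known to be produced together, under transcription factors such as Nfe2l1.

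The groups were WT males (n = 5) and WT females in metestrus (n = 4), diestrus (n = 6), proestrus (n = 5) and estrus (n = 7), and KO males (n = 7) and KO females in metestrus (n = 5), diestrus (n = 6), proestrus (n = 4) and estrus (n = 6). All were on a C57/BL6j background, 10.86 to 23.71 weeks old, with 1 library per mouse, and no treatment was given. KO mice lacked an exon of Cnih3, which encodes an auxiliary protein of AMPA receptors, so that the protein is truncated, and stage was read from vaginal cytology. Hippocampi were lysed with NP-40 and centrifuged, and RNA was taken from the supernatant. Of the 55 mice, 39 were listed under Cnih3 x B6 parents, all 28 KO mice among them, but 1 of 7 WT estrus and 1 of 5 WT proestrus mice. Since KO mice are homozygous, that listing cannot name both parents' genotypes in full, and it is used here only as a listed category, partly confounded with genotype.

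Library totals ranged from 25881295 to 63547098 reads counted on genes, and the highest correlation between 2 libraries was 0.9905. Cnih3 was at 19.4 to 43.6 CPM in KO and 20.1 to 58.5 CPM in WT mice, so the count over the whole gene did not separate the genotypes and does not check the labels. Transthyretin (Ttr), a choroid plexus marker, ran from 190 to 116308 reads and the pituitary hormone gene Prl from 5 to 6375 reads, whereas Lhb was at 0 in all 55 libraries. In bulk tissue fewer cells of a type and less RNA per cell cannot be told apart.

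A subset of diestrus libraries stood apart from the other diestrus libraries. The 7 diestrus mice younger than 14 weeks, 3 WT and 4 KO, had a mean of the 8 nuclear-retained RNAs on a fixed list (Malat1 and the like) between 4.58 and 5.15 log2 CPM, while the 5 diestrus mice of 14 weeks or more had 6.29 to 6.80. The same 7 mice held a mean over the 45 members of 7.02 to 7.36 log2 CPM, and the 5 older ones 6.79 to 7.07. The 10 mice below 14 weeks in the other groups spanned 6.82 to 7.41 for the members, with a median of 6.98, and 5.71 to 6.80 for the nuclear-retained RNAs. The 33 other mice of 14 weeks or more spanned 6.74 to 7.39 for the members and 4.97 to 6.98 for the nuclear-retained RNAs, the lowest being 1 WT male within the young diestrus range. Counts for diestrus against the other stages and males are therefore also given for each age class.

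Promoters are shown for 4 members that the results turn on, picked after their values were seen: Psmd2, which had the largest rise called in diestrus, Psmb5, a catalytic subunit, Psmd9, the member with the clearest genotype difference, and Psme4, which ran against the other members. The windows, from RefSeq on GRCm38.p6, hold 250 bases before and 50 bases after the annotated start. They lie at chr16:20651402-20651701 (plus strand) for Psmd2, chr14:54617946-54618245 (minus strand) for Psmb5, chr5:123227940-123228239 (plus strand) for Psmd9 and chr11:30771525-30771824 (plus strand) for Psme4, and are written 5′ to 3′ along the gene. Capitals mark the letters CCGGAAG, the core of an ETS factor site, and TGACNNNGC, the core of the antioxidant response element bound by Nfe2l1 and Nfe2l2, on either strand, and CCAAT, which none of the 4 windows holds.
Psmd2: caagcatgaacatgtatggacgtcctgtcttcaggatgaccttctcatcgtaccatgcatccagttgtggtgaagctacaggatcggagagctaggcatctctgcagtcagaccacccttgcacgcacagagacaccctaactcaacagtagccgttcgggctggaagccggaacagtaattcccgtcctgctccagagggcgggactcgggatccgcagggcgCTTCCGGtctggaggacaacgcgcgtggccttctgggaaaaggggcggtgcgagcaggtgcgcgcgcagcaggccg
Psmb5: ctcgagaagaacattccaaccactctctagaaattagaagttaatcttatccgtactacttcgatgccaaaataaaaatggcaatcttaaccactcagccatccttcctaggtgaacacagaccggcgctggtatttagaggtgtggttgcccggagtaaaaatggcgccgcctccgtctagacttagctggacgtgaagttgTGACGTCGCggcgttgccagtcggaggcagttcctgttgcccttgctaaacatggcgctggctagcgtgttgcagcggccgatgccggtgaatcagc
Psmd9: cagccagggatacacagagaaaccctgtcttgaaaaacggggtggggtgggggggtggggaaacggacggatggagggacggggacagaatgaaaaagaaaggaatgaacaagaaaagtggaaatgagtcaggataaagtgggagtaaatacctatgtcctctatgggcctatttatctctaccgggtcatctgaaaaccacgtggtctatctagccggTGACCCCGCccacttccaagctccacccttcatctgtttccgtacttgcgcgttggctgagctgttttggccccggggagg
Psme4: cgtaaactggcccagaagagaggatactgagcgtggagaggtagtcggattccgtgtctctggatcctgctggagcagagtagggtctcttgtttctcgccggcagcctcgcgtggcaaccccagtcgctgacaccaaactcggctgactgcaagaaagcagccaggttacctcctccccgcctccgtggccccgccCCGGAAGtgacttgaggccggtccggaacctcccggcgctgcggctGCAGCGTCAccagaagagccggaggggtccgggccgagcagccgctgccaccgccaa

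Windows were found for 38 of the 45 members, and 9 motifs were searched in them on both strands. The ETS letters CCGGAAG stood in 15 of 38 members (39.5%), beside 18.4% of the 11313 tested genes with a window and 9.93% of all 27025. The antioxidant response element core TGACNNNGC stood in 6 members (15.8%) beside 16.7% of tested genes. These 6 were Psmb5, Psmb6, Psmc6, Psmd9, Psmd12 and Psme4. CCAAT stood in 34.2% of members and 42.8% of tested genes, GGGCGG, the GC box, in 57.9% and 67.5%, and the nuclear respiratory factor 1 letters GCGCNNGCGC in 18.4% and 14.4%. The heat shock letters GAANNTTC stood in 2 members and the E-box CACGTG in 3, at 5.26% and 7.89% of members beside 7.04% and 11.4% of tested genes. The estrogen response element GGTCANNNTGACC and the cAMP response element TGACGTCA stood in none of the 38, beside 0.00884% and 3.5% of tested genes. These are matches of letters in the window only.

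Levels of the members differed more between parts of the complex than between groups of mice. Per kilobase of annotated exon, the medians were 107.2 CPM for the alpha ring, 108.8 for the beta ring, 133.05 for the ATPases, 75.58 for the other 19S subunits, 24.82 for activators and inhibitors, and 16.01 for chaperones. The ATPase Psmc5 was highest at 332.0 CPM per kilobase, and the nuclear activator Psme4 was lowest at 3.52. Between the highest and the lowest of the 10 group means a member moved by 0.17 to 0.78 log2 CPM (median 0.27), and the SD between mice of 1 group was 0.10 to 0.51 (median 0.20). The mean was highest in WT diestrus for 24 of 45 members and lowest in KO estrus for 25. Members varied together from mouse to mouse, so these counts are not separate results, and the share over all genes was not computed.

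Averaged over all 45 members, the groups overlapped. The mean was 7.10 ± 0.21 log2 CPM (SD, n = 6) in WT diestrus, 7.08 ± 0.24 (n = 5) in WT males, 7.07 ± 0.13 (n = 5) in WT proestrus, 6.98 ± 0.07 (n = 4) in WT metestrus and 6.95 ± 0.08 (n = 7) in WT estrus. In KO mice it was 7.06 ± 0.16 (n = 7) in males, 7.03 ± 0.15 (n = 4) in proestrus, 7.03 ± 0.08 (n = 6) in diestrus, 6.97 ± 0.11 (n = 5) in metestrus and 6.91 ± 0.12 (n = 6) in estrus. Neighbours in either order differed by less than the larger of their SDs.

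**Figure D1:**
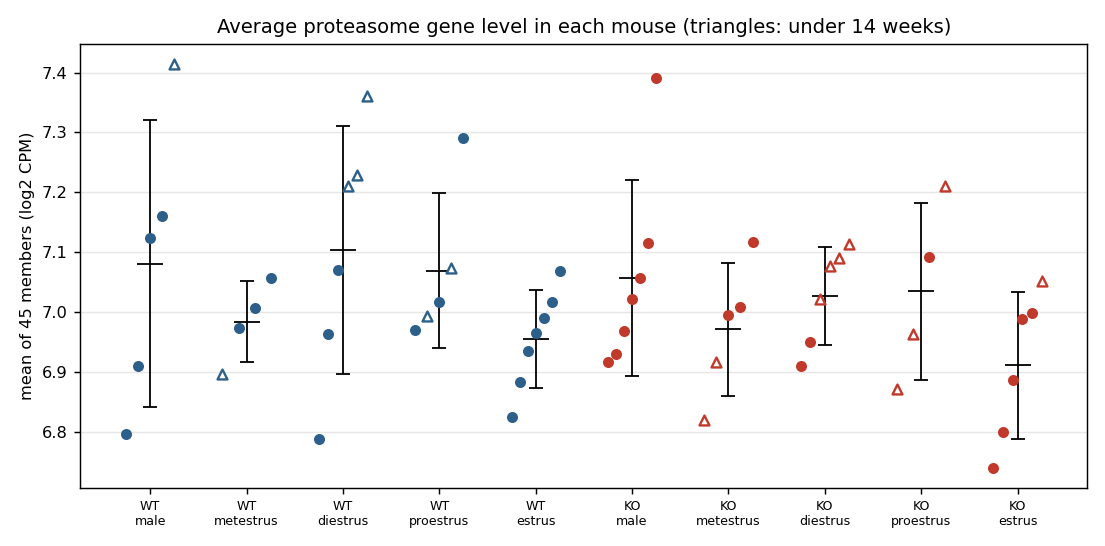
Mean log2 CPM of the 45 members (vertical axis) in each of the 55 mice, by group (horizontal axis), with WT in blue and KO in red, open triangles for mice younger than 14 weeks, and black bars for the mean ± SD. The 3 young WT diestrus mice sit at 7.21 to 7.36, above the 3 older ones, and all groups overlap their neighbours.

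With group means removed, most members varied together from mouse to mouse. Pearson's r over 55 mice had a median of 0.71 for the 990 pairs of members, 0.91 for the 91 pairs within the 20S core, 0.80 for the 136 pairs within the 19S particle and 0.79 between the particles. These points share libraries, so r is a description. The closest pair was Psmb3 and Psmb6, both of the beta ring (r = 0.98). A few members did not follow the rest. Against the mean of the other 44 members, r was 0.41 for Psmd1, 0.18 for Psmd2 and 0.10 for the chaperone Psmd5, and -0.43 for Psmd3, -0.49 for Psme4 and -0.61 for Psme3. Psmd1, Psmd2 and Psmd5 varied together (r = 0.79 to 0.90 between them), and so did Psmd3 and Psme3 (r = 0.89).

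Genes outside the list that followed the member average most closely included Mdh2 (r = 0.97), Slc25a4, Atp5c1, Cops6, Suclg1, Atp5pb, Atp6v1d, Idh3g and Ndufv2 (r = 0.96). Most of these serve mitochondrial energy metabolism, and Cops6 is a subunit of the signalosome. Adam10, a sheddase, had the lowest r of any gene (-0.92). The member average had r = -0.56 with the mean of the nuclear-retained RNAs and r = -0.10 with log2 library total.

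**Figure D2:**
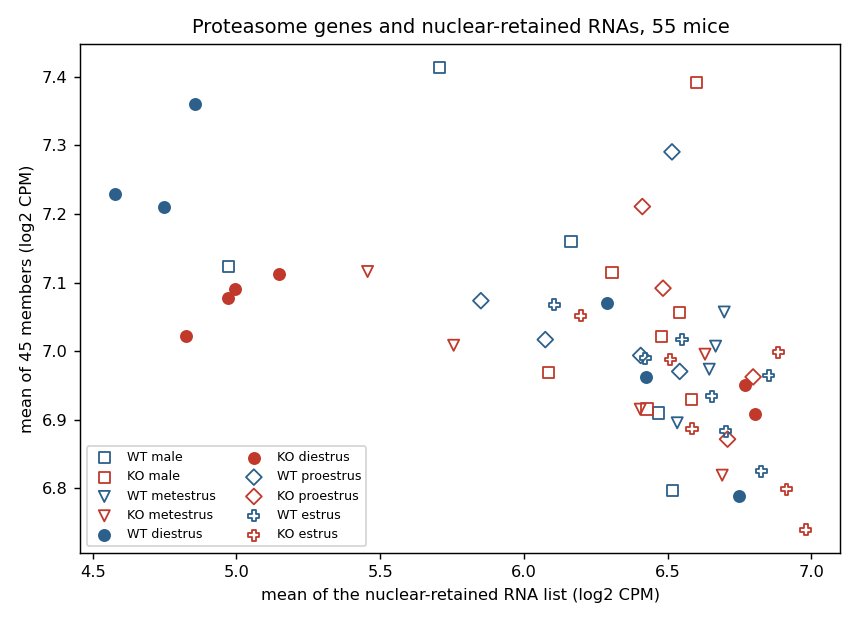
Mean log2 CPM of the 45 members (vertical axis) against the mean of the nuclear-retained RNA list (horizontal axis) in 55 mice, with WT in blue, KO in red, a marker shape per sex or stage and diestrus filled. The 7 diestrus mice younger than 14 weeks lie at 4.58 to 5.15 on the horizontal axis, left of nearly all other mice.

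In WT mice, many proteasome genes were called higher in diestrus than in estrus when libraries were weighted. WT estrus held 0 mice younger than 14 weeks and WT diestrus 3, so age and stage cannot be told apart for the young mice. In the fit with library weights (limma, Benjamini-Hochberg adjustment over all genes, called at an adjusted p below 0.05), 25 members rose and 1, Psme4, fell, 26 of 45 in all, where 22.1% of all 16168 genes were called and 9.05% were called higher. The median log2 fold change was 0.24 over the members and -0.01 over all genes. The rise was counted for 15 of 17 genes of the 19S particle and for 5 of 14 of the 20S core, whose medians were 0.27 and 0.22.

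Among 19S genes, Psmd1, a large scaffold subunit of the base, was at 7.21, 7.66 and 7.83 log2 CPM (lowest, median and highest of 6) in WT diestrus and at 7.16, 7.24 and 7.50 in estrus (7 mice). Only the 3 young diestrus mice and 1 older one exceeded every estrus mouse. Its log2 fold change was 0.38 ± 0.10 (SE, limma adjusted p = 0.0041). Psmd13, a subunit of the lid, was at 7.07, 7.51 and 7.81 in diestrus and 7.08, 7.31 and 7.43 in estrus, a log2 fold change of 0.29 ± 0.08 (limma adjusted p = 0.0073). The lowest of its 13 values was a diestrus mouse and the 3 highest were the young diestrus mice. Psmd14, which removes ubiquitin chains, ran from 7.63 to 8.32 in diestrus and from 7.57 to 8.00 in estrus (log2 fold change 0.27 ± 0.09, limma adjusted p = 0.027). All the ATPases but Psmc1 were called, with log2 fold changes of 0.25 (Psmc3) to 0.32 (Psmc2).

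In the core, the catalytic genes differed in what passed. Psmb5, the chymotrypsin-like subunit, was at 7.35, 7.89 and 8.23 log2 CPM (lowest, median, highest) in diestrus and 7.34, 7.63 and 7.75 in estrus, a log2 fold change of 0.37 ± 0.11 (limma adjusted p = 0.016). Psmb7, the trypsin-like subunit, was at 6.34, 6.86 and 7.16 against 6.45, 6.55 and 6.71, a log2 fold change of 0.33 ± 0.10 (limma adjusted p = 0.013). Psmb6, the caspase-like subunit, was at 8.13, 8.55 and 8.78 against 8.14, 8.43 and 8.61, and its log2 fold change of 0.21 ± 0.10 was not called (limma adjusted p = 0.12). For all 3, diestrus overlapped estrus and held the highest values, those of the young mice among them. Alpha ring genes called were Psma1, Psma2 and Psma4, at 0.24 to 0.25.

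Of the regulators, Psmf1, an inhibitor of the core that also carries proteasomes along axons, was at 5.81, 6.11 and 6.34 in diestrus and 5.67, 5.87 and 6.16 in estrus (log2 fold change 0.28 ± 0.08, limma adjusted p = 0.0064). Psme1 and Psme2, which form the interferon-inducible cap, rose by 0.30 and 0.26, and the chaperones Psmd5 and Psmd10 by 0.30 and 0.23. The chaperones Psmg1, Psmg2, Psmg3 and Psmg4 and Psmd9 were not called.

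The WT calls depended on the young diestrus mice and on the library weights. With only the diestrus mice of 14 weeks or more, 0 members were called and the median log2 fold change was 0.01. With only those younger, 38 were called and the median was 0.40. Here and below, the share of all genes called was computed only for the weighted fit to all mice. Counts from other fits therefore have no background beside them. Leaving out any 1 of the 3 young mice gave 0 calls. Without library weights no member was called (median 0.17), nor was any by edgeR's quasi-likelihood test (0.18) or DESeq2 (0.19), and with unadjusted p below 0.05 the weighted fit held 35.

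In KO mice the same comparison gave 21 members higher and 1 lower in diestrus, 22 of 45, where 30.7% of all genes were called and 11.3% were called higher. The median log2 fold change was 0.22 over members. All 6 ATPases and 9 of 11 other 19S genes were called higher, against 3 of 14 core genes. Their medians were 0.27 for the ATPases and 0.25 for the other 19S genes. All 7 alpha and all 7 beta ring genes had positive log2 fold changes, with medians of 0.20 and 0.17. Psmd11, a lid subunit that holds the particles together, was at 7.50, 7.80 and 7.82 log2 CPM in KO diestrus and 7.23, 7.59 and 7.80 in KO estrus (6 mice each). Of the 6 diestrus mice 4 lay above the second highest estrus mouse, and the log2 fold change was 0.28 ± 0.08 (limma adjusted p = 0.0068). Psmf1 was at 5.76, 6.10 and 6.20 against 5.73, 5.86 and 5.98 (0.25 ± 0.07 on the log2 scale, limma adjusted p = 0.0066). Psmb7 rose by 0.27 ± 0.09, while Psmb5 at 0.27 ± 0.11 and Psmb6 at 0.13 were not called. Psmd10 was the only 1 of 45 members whose 6 diestrus values all exceeded the 6 estrus values, as did 0.229% of all genes. Of the 26 WT calls 21 (80.8%) were also made in KO mice, where they were 95.5% of the calls. The same overlap over all genes was not computed. Members varied together from mouse to mouse, so the shared calls are not separate results. Psmc1 was called in KO alone and Psma1, Psmb5, Psmd4, Psmd5 and Psme2 in WT alone.

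Again the older diestrus mice (n = 2) alone gave 0 calls, with a median of 0.07, and the 4 younger gave 27, with 0.25. The share over all genes was not computed for either fit. Fits without weights, edgeR and DESeq2 each gave 0 calls, with medians of 0.13 to 0.14. Without KO estrus replicate 2 or replicate 6 the count was 5.

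**Figure D3:**
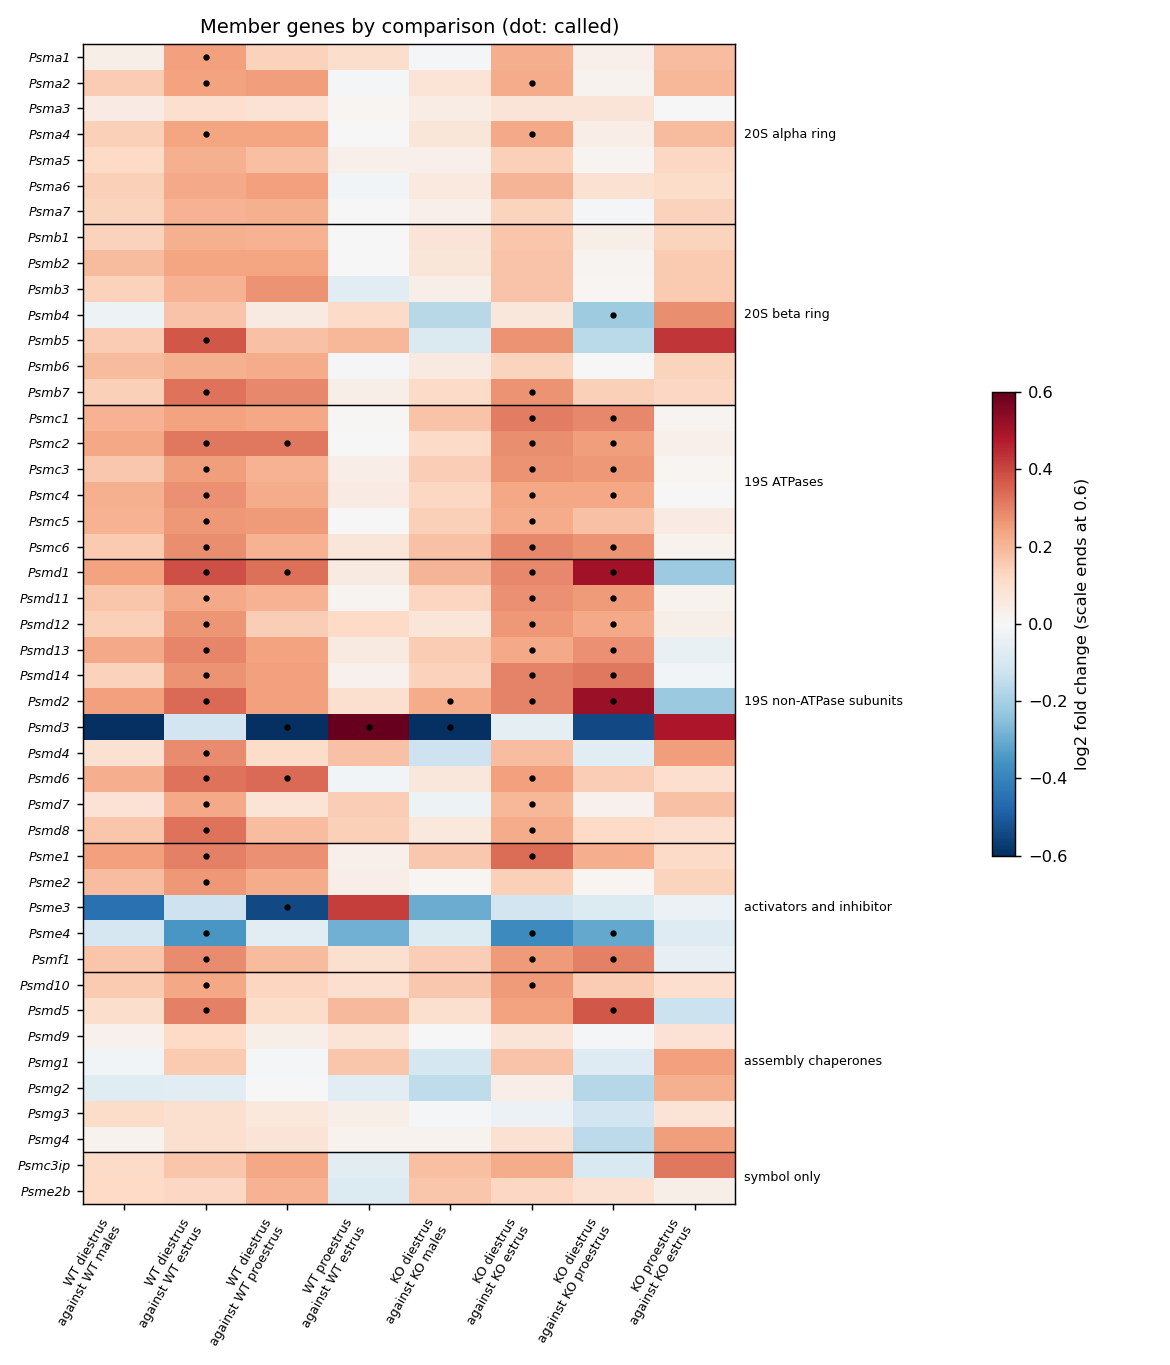
Log2 fold change of each member (vertical axis, by complex part) in 8 comparisons (horizontal axis), red for higher and blue for lower in the first group named, with a colour scale that ends at 0.6, and black dots for calls at an adjusted p below 0.05. Dots cluster in the 19S rows of the diestrus against estrus columns and of KO diestrus against KO proestrus, and Psmd3, Psme3 and Psme4 run the other way.

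Other RNAs moved with diestrus in the same libraries. Of the 8 nuclear-retained RNAs, 6 were called lower in diestrus than in estrus in WT (median log2 fold change -1.45) and 6 in KO mice (-1.75). Their summed level was 528 to 3540 CPM in WT diestrus against 2800 to 4120 in estrus, and 661 to 3940 against 2440 to 3840 in KO mice. Of 10 mature oligodendrocyte genes 5 were lower in WT and 6 in KO diestrus, with sums of 2950 to 5120 against 3740 to 5350 CPM and of 2830 to 4620 against 3470 to 5740 CPM. Of 5 blood genes 5 were lower in WT diestrus, with sums of 142 to 365 against 229 to 1180 CPM, and 0 in KO. Of 6 excitatory neuron markers, 2 were higher and 4 lower in WT diestrus, and 2 higher and 3 lower in KO diestrus. Their sums were 2820 to 3400 against 2660 to 3040 CPM in WT and 2580 to 3760 against 2510 to 3300 CPM in KO mice. Every gene of these 4 lists passed the CPM filter. Pituitary genes, of which 3 of 6 passed it, summed to 4.25 to 70.6 against 33.9 to 128 CPM in WT. In KO mice they summed to 7.90 to 173 against 11.9 to 113 CPM. The 9 choroid plexus genes summed to 47.6 to 1020 against 23.4 to 117 CPM in WT and 32.4 to 620 against 36.6 to 1260 CPM in KO mice. Their part in the result was not tested.

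Against proestrus, KO diestrus showed the sharpest split between the particles. Of 17 genes of the 19S particle 11 were called higher. Of the 14 core genes none was called higher and Psmb4 was called lower (log2 fold change -0.21 ± 0.08, limma adjusted p = 0.035). In all 13 members rose and 2 fell, where 34.3% of all genes were called and 14.9% were called higher. Medians were 0.25 for the 19S and 0.02 for the core genes. Psmd2, the base subunit that docks ubiquitin shuttles, was at 8.09, 8.46 and 8.68 log2 CPM in KO diestrus and at 7.81, 7.91, 8.08 and 8.14 in the 4 KO proestrus mice. Of the 6 diestrus mice 5 exceeded every proestrus mouse, and the log2 fold change was 0.52 ± 0.10 (limma adjusted p = 8.7e-05). Psmd1 was at 7.28, 7.61 and 7.81 against 7.04, 7.04, 7.18 and 7.43 (0.50 ± 0.10 on the log2 scale, limma adjusted p = 8.7e-05). The chaperone Psmd5 rose by 0.37 ± 0.10. In edgeR, in DESeq2 and without weights 2 members were called, and Psmd1 and Psmd2 kept their calls in all 3. With only the older diestrus mice no member was called, with only the younger 18 were, and without KO proestrus replicate 1 the count was 4. Shares over all genes were not computed for these subsets. In the same comparison 6 of 8 nuclear-retained RNAs were lower and 1 higher, with sums of 661 to 3940 CPM against 3130 to 3980, and 7 of 10 oligodendrocyte genes were lower, with sums of 2830 to 4620 against 3860 to 6190 CPM. Of 8 microglia genes 5 were lower (197 to 215 against 221 to 327 CPM summed), of 5 blood genes 4 were lower (153 to 393 against 278 to 486 CPM), and of 6 excitatory neuron genes 2 were higher and 3 lower (2580 to 3760 against 2330 to 2540 CPM). Their part in the result was not tested.

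The difference between the 19S and the core average within a mouse was -0.187 ± 0.119 (SD, n = 4) log2 CPM in KO proestrus and -0.0045 ± 0.101 (n = 6) in KO diestrus. It was -0.0997 ± 0.246 (n = 5) in WT proestrus, where 1 library was at -0.525, and -0.0425 ± 0.063 (n = 6) in WT diestrus. All 4 KO proestrus mice lay between -0.364 and -0.110 and the KO diestrus mice between -0.116 and 0.119, so that 1 KO diestrus mouse reached into the proestrus range.

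WT diestrus against WT proestrus gave 3 members higher (Psmc2, Psmd1 and Psmd6, at 0.32, 0.33 and 0.34) and 2 lower (Psmd3 and Psme3), 5 of 45, where 9.66% of all genes were called and 2.67% were called higher. The median was 0.21. With only the younger diestrus mice 33 were called and with only the older 0, and edgeR, DESeq2 and the fit without weights called 0. Shares over all genes were not computed for these fits. The count was 0 also without any 1 young WT diestrus mouse or WT proestrus replicate 3. Here 5 of 8 nuclear-retained RNAs were lower and 1 higher, with sums of 528 to 3540 CPM against 1710 to 3670, and 8 of 10 oligodendrocyte genes were lower, at 2950 to 5120 against 3550 to 6680 CPM, and their part was not tested.

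Diestrus and males differed less. In WT mice 0 members were called by limma, with 6 at an unadjusted p below 0.05, by edgeR or by DESeq2, where 0.0680% of all genes were called and 0.0186% called higher, and the median log2 fold change was 0.14. Psmd13, for example, was at 7.11, 7.16, 7.33, 7.52 and 7.80 in the 5 WT males, and its log2 fold change was 0.23 ± 0.10 (limma adjusted p = 0.24). With only the younger WT diestrus mice 28 members were called and with only the older 0. When mice of B6 x B6 parents were left out, 38 were called. The 0.0680% belongs to the fit with all mice. The share of all genes called was not computed for the subsets, so their counts have no background beside them. In KO mice Psmd2 rose (0.22 ± 0.09, limma adjusted p = 0.046) and Psmd3 fell, 2 of 45 where 28.7% of all genes were called and 10.7% called higher, and the median was 0.07. Psmd2 was at 7.93, 8.31 and 8.46 in the 7 KO males, and 4 of the 6 KO diestrus mice exceeded every male. With only the younger KO diestrus mice 10 members were called and with only the older 0, again without a share over all genes. Neither call was made by edgeR, DESeq2 or without weights. In this comparison 6 of 8 nuclear-retained RNAs were lower and 1 higher (661 to 3940 against 2110 to 3500 CPM summed), 8 of 10 oligodendrocyte genes were lower (2830 to 4620 against 4250 to 5490 CPM), and 6 of 8 microglia genes were lower and 1 higher (197 to 215 against 210 to 276 CPM), and their part was not tested.

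Proestrus and estrus gave 1 call in WT, Psmd3, where 6.82% of all genes were called and 5.25% called higher, and 0 in KO mice by limma, edgeR or DESeq2, where 0.507% were called, 0.359% higher, and 9 members had an unadjusted p below 0.05. In KO mice 2 of 45 members, Psmb4 and Psmb5, were higher in every proestrus than in every estrus mouse, as were 2.44% of all genes. Psmb5 was at 7.70, 7.82, 7.89 and 8.30 in the 4 proestrus mice and 7.24, 7.39 and 7.66 (lowest, median, highest) in estrus, a log2 fold change of 0.43 ± 0.12 (limma adjusted p = 0.069). Psmd4 and Psmd7, 2 of 45, were higher in every WT proestrus than in every WT estrus mouse, as were 0.823% of all genes, and neither was called. In WT proestrus against estrus 8 of 9 choroid plexus genes were called higher, with sums of 51.9 to 1370 CPM against 23.4 to 117, and 2 of 10 oligodendrocyte genes were higher, with sums of 3550 to 6680 CPM against 3740 to 5350. Their part in the result was not tested.

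Psmd3, Psme3 and Psme4 ran against the other members. Psmd3, a subunit of the 19S lid encoded at chr11:98682554-98695979 (GRCm38, plus strand), was at 6.15, 6.65, 6.80, 6.80 and 6.88 log2 CPM in WT proestrus, at 5.09, 6.02 and 6.61 in WT diestrus and at 5.22, 5.69 and 6.63 in WT estrus. Proestrus was high in 4 of 5 mice and the others were spread over more than 1 log2 unit. It was lower in diestrus than in proestrus by 0.96 ± 0.28 (limma, -0.96, adjusted p = 0.026) and higher in proestrus than in estrus (0.84 ± 0.23, limma adjusted p = 0.021). In KO mice it was at 4.84, 6.35 and 6.68 in diestrus and 5.68, 6.78 and 6.95 in males (-0.72 ± 0.22, limma adjusted p = 0.0096), with 4 of 6 diestrus mice inside the male range.

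Psme3, at chr11:101316213-101323537, encodes the nuclear activator of the core. It was at 5.86, 6.44 and 6.75 log2 CPM in WT diestrus and at 6.36, 6.77, 6.80, 6.83 and 6.92 in WT proestrus (-0.54 ± 0.17, limma adjusted p = 0.033). The 3 young diestrus mice were at 5.86, 6.05 and 6.19 and the older 3 at 6.69, 6.73 and 6.75, inside the proestrus range. In WT males it was at 6.09, 6.56, 6.83, 6.84 and 6.86 (-0.45 ± 0.18 for diestrus, limma adjusted p = 0.22).

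Psme4, the other nuclear activator, was at 4.48, 4.73 and 5.26 log2 CPM in WT diestrus and 4.48, 5.06 and 5.24 in WT estrus (-0.35 ± 0.10, limma adjusted p = 0.011). It was at 4.51, 4.72 and 5.17 in KO diestrus and 4.90, 5.08 and 5.31 in KO estrus (-0.38 ± 0.09, limma adjusted p = 0.0020), with 5 of the 6 KO diestrus mice below every KO estrus mouse. Against KO proestrus it fell as well (-0.31 ± 0.10, limma adjusted p = 0.014). No call on Psme3 or Psme4, nor any on Psmd3, was made by edgeR, DESeq2 or without weights.

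**Figure D4:**
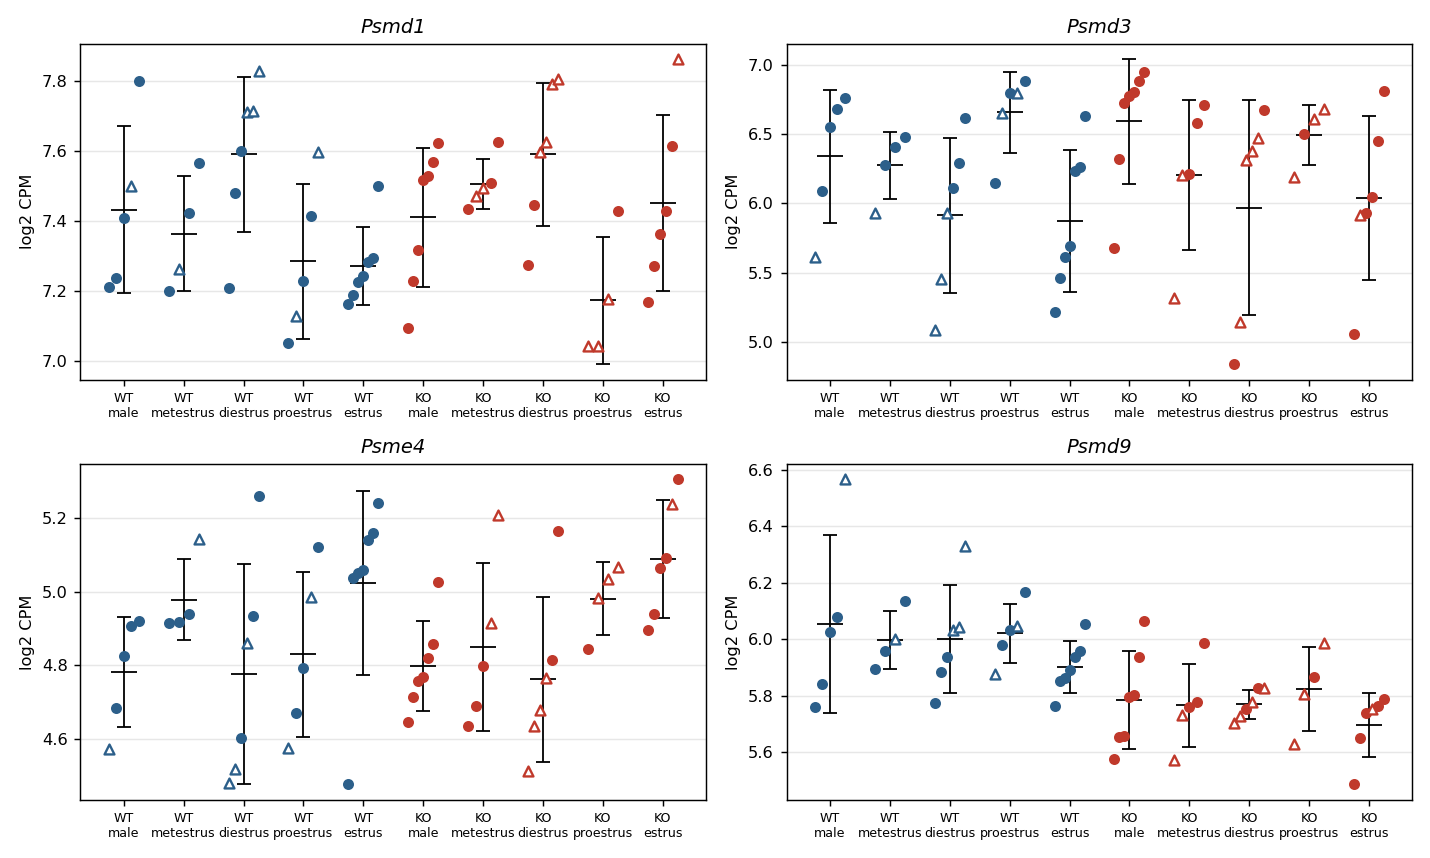
Log2 CPM (vertical axes) of Psmd1, Psmd3, Psme4 and Psmd9 in each mouse by group (horizontal axes), with WT in blue, KO in red, open triangles for mice younger than 14 weeks and black bars for the mean ± SD. Psmd1 lay high and Psme4 low in most young diestrus mice, Psmd3 scattered widely within groups, and the mean of Psmd9 was lower in KO than in WT mice in males and at every stage.

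Between genotypes, Psmd9, a chaperone of the 19S base, was lower in KO mice. Over 5 sexes and stages the log2 fold change was -0.23 ± 0.04 (limma adjusted p = 3.15e-05), a level 14.9% lower. In WT mice the group means were 5.90 to 6.05 log2 CPM and in KO mice 5.70 to 5.82. WT estrus ran from 5.76 to 6.05 with a median of 5.89 and KO estrus from 5.49 to 5.79 with a median of 5.75, and KO diestrus from 5.70 to 5.83 against 5.77 to 6.33 in WT. Every KO mean was below every WT mean, though single mice overlapped. The call was kept by edgeR, DESeq2 and the fit without weights. With only mice of Cnih3 x B6 parentage the log2 fold change was -0.28, but WT metestrus, proestrus and estrus then held 1 mouse each. The call was lost with only mice of 14 weeks or more (-0.15), which left out 3 of 4 KO proestrus mice. The annotated exons of Psmd9 overlap those of an antisense gene, Gm26745, over 1849 bases, and reads of the pair could not be told apart without strand.

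Psma3, of the alpha ring, was lower by 0.11 (-0.11 ± 0.02, limma adjusted p = 0.0037) and Psmd14 by 0.15 (-0.15 ± 0.04, limma adjusted p = 0.030). Psma3 ran from 8.66 to 8.77 in WT estrus and from 8.44 to 8.89 in KO estrus. Neither was called by edgeR, DESeq2, without weights or when mice of B6 x B6 parents were left out. These 3 of 45 members were the calls, all lower in KO, where 3.40% of all genes were called and 1.50% called higher. KO and WT diestrus alone gave 0 calls by limma, where 0% of all genes were called, by edgeR or by DESeq2, with 6 members at an unadjusted p below 0.05 (Psmd9 at -0.26 ± 0.08). With only the younger diestrus mice 3 members were called lower in KO, and the share over all genes was not computed.

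No change across the cycle was shown to differ by genotype. The interaction of genotype with the diestrus-male, diestrus-estrus and diestrus-proestrus differences gave 0 calls by limma, edgeR and DESeq2 (0% of all genes), with 0, 0 and 2 members at an unadjusted p below 0.05. The last were Psmb4 (-0.27, 95% interval -0.51 to -0.03) and Psme3 (0.46, 95% interval 0.01 to 0.91). Intervals for the diestrus-estrus interaction reached from -0.64 to 0.77 over all members, so differences as large as the changes themselves were within them. Across all 10 groups, 14 members were called in the F test, where 29.6% of all genes were, and 2 without weights.

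Other genes of the pathway, on lists of ubiquitin and proteasome partners, moved in part with the subunits. Calls on these and the following lists come from the weighted fit alone. They were not checked under the other fits or by age class of the diestrus mice. Of all genes, 22.1% were called in WT and 30.7% in KO diestrus against estrus. The share was 34.3% in KO diestrus against proestrus and 28.7% against KO males. Of 10 partners without a Psm symbol 4 rose and 1 fell in WT diestrus against estrus. Uchl5, a deubiquitinase of the cap, rose by 0.38 ± 0.10, Adrm1, the ubiquitin receptor that binds it, by 0.35 ± 0.10, Usp14, the other cap deubiquitinase, by 0.31 ± 0.11, and Txnl1 by 0.31 ± 0.10, while Akirin2, which carries proteasomes into the nucleus, fell by 0.33 (-0.33 ± 0.12). In KO mice Uchl5 (0.31) and Usp14 (0.29) rose and Akirin2 fell (-0.30). In KO diestrus against proestrus Usp14 reached 0.57 ± 0.11, Ube3c, a ligase, rose by 0.20 and Akirin2 was lower (-0.29). In KO diestrus against males Usp14 (0.25) and Ube3c (0.21) were higher and Adrm1 (-0.24) and Txnl1 (-0.27) lower.

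Of 6 ubiquitin and activating enzyme genes, Ubb rose in WT diestrus against estrus (0.28 ± 0.09) and Ubb and Uba1 in KO (0.23 and 0.17). Of 9 shuttle and unfoldase genes 2 were called in WT, both higher, with Vcp, the unfoldase, at 0.22. In KO mice Vcp rose (0.25) while Rad23b and Ubqln1 fell (-0.20 and -0.16). Of 7 genes of transcriptional control, Nfe2l1 and Nfe2l2 among them, 0 were called in diestrus against estrus in either genotype, by limma. Of the immunoproteasome genes, Psmb10 rose in WT (0.44 ± 0.12) and KO diestrus (0.33 ± 0.11) and was higher in KO than in WT mice overall (0.23 ± 0.05), and Psmb8 and Psmb9 were not called in any comparison.

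Other large complexes are given beside the members. In WT diestrus against estrus 21 of 81 respiratory chain genes and 6 of 76 ribosomal protein genes were called, all higher, with medians of 0.21 and 0.18 beside 0.24 for the members. Of all genes 22.1% were called there, 9.05% higher. In KO mice 32 of 81 (31 higher) and 19 of 76 (all higher) were called, with medians of 0.24 and 0.24 beside 0.22. Of all genes 30.7% were called in KO mice, 11.3% higher.

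**Figure D5:**
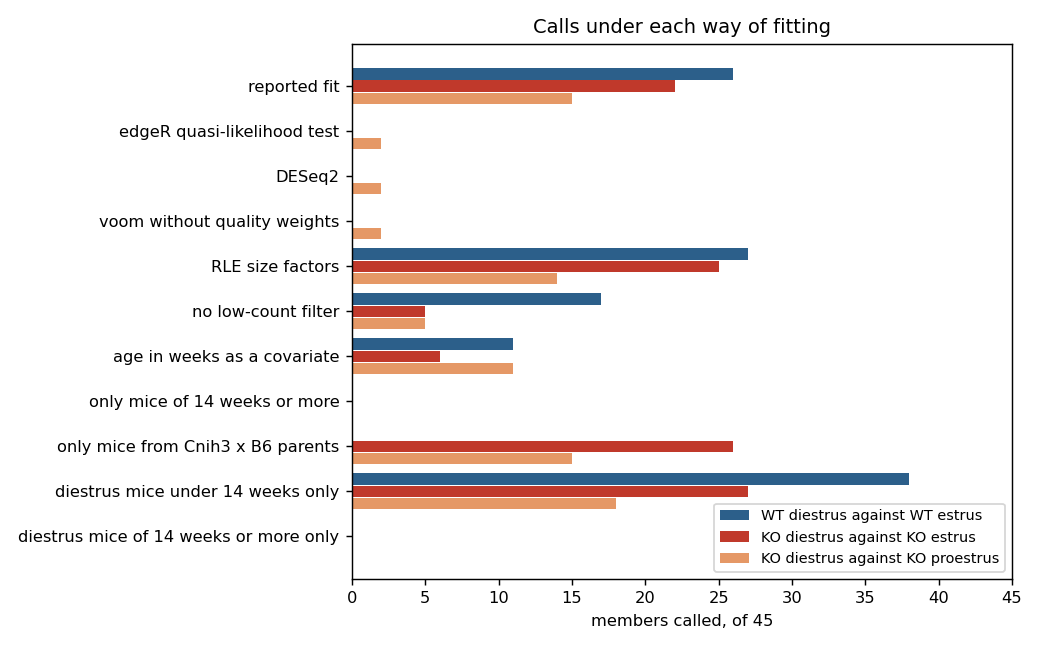
Number of the 45 members called (horizontal axis) for WT diestrus against estrus, KO diestrus against estrus and KO diestrus against proestrus, under each way of fitting (vertical axis). The reported fit called 26, 22 and 15, and the fits without library weights, edgeR and DESeq2 called 0, 0 and 2.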

How the data were processed

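RNA-seq libraries of dorsal hippocampus from 55 mice were analysed, 1 per mouse. Per the submitters' processing notes and the paper's methods, the authors aligned reads to GRCm38 with STAR 2.7.9a and counted them per Ensembl gene with featureCounts 2.0.3. The deposited gene counts were used as the source of every value. They are raw. Of counts from 1 to 10, 60.1% were even, and whether read ends or pairs were counted was not tested. The authors also deposited log2 CPM values, which were used only to check the normalization. The 45 members differed from them by at most 5.33e-15. Gene CPM and transcript tables were not used here, and 1 count column matched no listed sample and was not used. Of 55774 lines, 55487 genes remained after repeats.

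The filter on low values (above 1 CPM in 10 or more libraries) and removal of 5 ribosomal RNA genes left 16168 genes. Analyses used R 4.3.3. Counts were scaled by TMM (edgeR 4.0.16) and fitted by voomWithQualityWeights and eBayes (limma 3.58.1) with 1 mean per group. Weights ran from 0.194 to 2.35 per library, from 0.763 to 1.74 in diestrus mice under 14 weeks and from 0.327 to 0.935 in older diestrus mice, so a fitted fold change can differ from the difference of plain means. Values per mouse are log2 CPM after TMM. P-values were adjusted by Benjamini and Hochberg over all genes of a comparison, with a threshold of 0.05. They set a difference between groups against the spread between mice, with mice taken as independent. The labels name no litter or cage, so that independence could not be checked. Intervals are 95%.

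Alternatives were edgeR's quasi-likelihood test, DESeq2 1.42.0, no weights, RLE scaling, no filter, age as a covariate, leaving out mice under 14 weeks, leaving out mice of B6 x B6 parents, and leaving out each mouse. Either age class of diestrus mice alone, and the 2 further interactions, were added after seeing the data. The fit was tested on simulated data, with changes set in few genes and in WT diestrus alone, and most of the small changes were missed. In the real WT diestrus against estrus comparison 22.1% of all genes were called. The share missed in simulation therefore cannot be carried over to the comparisons reported here.

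Members, gene lists and tests were chosen with earlier results of these data known. Values per mouse were given for the 3 members of smallest adjusted p in diestrus against males and against estrus of each genotype, for Psmb5, Psmb6 and Psmb7, and for members called between genotypes. All members and listed genes could be named, with the 10 genes most correlated with the member average and the least. Some results on these lists are not reported here. Ribosomal and respiratory chain genes were taken by symbol. Exons are of GENCODE vM21, and overlapping exons were counted without regard to strand. Astrocyte, microglia and endothelium lists were also computed, as were neuronal, choroid plexus and pituitary lists. In WT and KO diestrus against estrus these lists had medians of -0.16 and 0.06 (astrocyte), -0.29 and -0.23 (microglia), 0.08 and 0.02 (endothelium), -0.46 and -0.41 (excitatory neuron), 1.76 and 0.52 (choroid plexus) and -2.90 and -0.41 (pituitary) on the log2 scale.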

Additional observations from a re-analysis of the deposited data

Results flagged for a closer look

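Values that stood apart from the rest of their group were found 18 times in 170 groups of 4 to 7 mice tested with Dixon's ratio, of which chance flags about 1 in 20. All are in log2 CPM, and many came from the same few libraries.

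KO male replicate 6 was highest among 7 for Psmb5 at 8.43, Psmb7 at 7.28, Psma3 at 8.91, Psmd13 at 7.69, the mean of all 45 members at 7.39 and the mean of the 14 core genes at 8.47, and lowest for Psme3 at 5.98. In the other 6 KO males the member mean ran from 6.92 to 7.11 and Psme3 from 6.56 to 6.89.

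WT proestrus replicate 5 was highest among 5 for Psmb6 at 9.09 and for the core mean at 8.41, with the others at 7.81 to 7.92 for that mean, and lowest for Psme3 at 6.36.

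KO diestrus replicate 6, one of the 2 older KO diestrus mice, was lowest among 6 for Psmd11 at 7.50, Psmd13 at 7.21 and Psmf1 at 5.76. WT estrus replicate 5 was highest among 7 for Psmd1 at 7.50 and lowest for Psme4 at 4.48, where the others ran from 5.04 to 5.24.

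Single values remained in KO estrus, where replicate 4 was lowest for Psme3 at 5.82, in KO proestrus, where replicate 4 was highest for Psmf1 at 5.92, and in WT metestrus, where replicate 1 was highest for Psme4 at 5.14.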

How the results depend on the processing

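Counts of members called varied with the fit. Shares over all genes were computed only for the weighted fit to all mice, so the other counts have no background beside them. With only mice of Cnih3 x B6 parents, WT metestrus, proestrus and estrus held 1 mouse each. Leaving out mice under 14 weeks removed 3 of 4 KO proestrus mice. For those fits no count is given where 2 groups were compared and 1 of them held a single mouse. For the 10-group F test (14 called) edgeR, DESeq2 and the fit without weights each gave 2, age as a covariate 7, no filter 7, Cnih3 x B6 parents 42 and mice of 14 weeks or more 0. WT diestrus against estrus (26) gave 0 by edgeR, DESeq2, without weights, and with all mice or diestrus mice of 14 weeks or more, 11 with age and 17 with no filter. KO diestrus against estrus (22) gave 0 by edgeR, DESeq2, without weights and with either set of older mice, 6 with age and 5 with no filter. KO diestrus against proestrus (15) gave 2 by edgeR, DESeq2 and without weights, 5 with no filter and 0 with older diestrus mice. WT diestrus against proestrus (5) gave 0 by edgeR, DESeq2, without weights, with no filter, with age and with either set of older mice, and 33 with younger diestrus mice. KO diestrus against males (2) gave 0 by edgeR, DESeq2, without weights, with age and with either set of older mice, 1 with no filter, 5 with those parents and 10 with younger diestrus mice. WT diestrus against males (0) gave 38 with those parents and 28 with younger diestrus mice. WT proestrus against estrus (1) gave 0 by edgeR, DESeq2, without weights and with no filter, 2 with age, and 3 in older mice. KO proestrus against estrus (0) gave 2 with age. KO against WT (3) gave 1 by edgeR, DESeq2, without weights and with older diestrus mice, 9 with those parents, 0 in mice of 14 weeks or more and 5 with younger diestrus mice. With younger diestrus mice, KO against WT diestrus (0) gave 3 and the diestrus-proestrus interaction (0) gave 1. RLE scaling kept every count within 1.5 times.

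Leaving out each mouse in turn gave 0 to 29 members for WT diestrus against males, 0 to 36 against estrus and 0 to 31 against proestrus, 0 to 3 for WT proestrus against estrus, 1 to 3 for KO diestrus against males, 5 to 27 against estrus and 4 to 15 against proestrus, 0 to 2 for KO proestrus against estrus, 2 to 6 for KO against WT, 0 to 0 for KO against WT diestrus and the 3 interactions, and 5 to 34 for the F test. The F test count was 5 without WT diestrus replicate 3, 4 or 5.

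Log2 fold changes turned sign for Psmb7 in WT diestrus against estrus (-0.0266 with all mice, and -0.0281 with diestrus mice, of 14 weeks or more). The same was seen for Psmd2 in KO diestrus against males (-0.11 with either set of older mice). Psmd1 and Psmd2 turned in KO diestrus against estrus (-0.0216 and -0.026 with older diestrus mice). Psmd3 turned in WT proestrus against estrus (-0.50 with Cnih3 x B6 parents only, which left 1 mouse in each group). In KO diestrus against proestrus the sign turned in mice of 14 weeks or more for Psmd1 (-0.10), Psme4 (0.12), Psmd11 (-0.0847) and Psmd14 (-0.12). That setting left out 4 of 6 KO diestrus and 3 of 4 KO proestrus mice. These subsets hold fewer mice, and the cause was not tested. No paired analysis was possible because replicate numbers follow accession order and the labels name no litter, cage or day. Some mice share an age and the start of a name, which was not used as a pairing.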

Other observations

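Further calls were made among genes of the ubiquitin system on the lists, with log2 fold changes given. They come from the weighted fit alone and were not checked under the other fits. Of all genes, 34.3% were called in KO diestrus against proestrus, 6.82% in WT proestrus against estrus and 3.40% in KO against WT. Ufd1, a cofactor of Vcp, was higher in KO diestrus than in KO proestrus (0.30 ± 0.09), as were Vcp (0.37 ± 0.07) and Uba1 (0.29 ± 0.06), and Rad23b was lower (-0.25 ± 0.07). Ngly1, which processes Nfe2l1, was higher in that comparison (0.30 ± 0.12, limma adjusted p = 0.048). Nfyc, a subunit of NF-Y, was higher in WT proestrus than in WT estrus (0.39 ± 0.11, limma adjusted p = 0.018), as were Adrm1 (0.37 ± 0.10) and Txnl1 (0.31 ± 0.09), while Ubqln2, a shuttle, was lower (-0.27 ± 0.08). Fbxo7, a ligase subunit that binds Psmf1, was lower in KO than in WT mice (-0.09 ± 0.03, limma adjusted p = 0.050).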
